A study of Mus musculus with 22 samples.

Results

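The 10 genes described here encode CC chemokines, namely Ccl2, Ccl3, Ccl4, Ccl5, Ccl6, Ccl7, Ccl8, Ccl9, Ccl12 and Ccl22. They were taken by name from the 46882 genes of the RNA table, with earlier results of these data known, and all 10 were found. The question was which of these messages were present in cultured MC38 cells and which were read only in tissue, that is, in tumors grown from MC38 cells or in skin.

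CC chemokines are small secreted proteins with a pair of adjacent cysteines near the amino terminus. They bind G protein-coupled receptors on leukocytes and draw these cells along a gradient. In tumors they are best known for recruiting monocytes and T cells, and both the tumor cells and the host's macrophages can make them.

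The MC38 line comes from a chemically induced colon adenocarcinoma of a C57BL/6 mouse. RNA was read in 2 samples of MC38 cells (strain C57BL/6N, labelled day 0), 2 skin samples of wild-type C57BL/6N mice (day 23), and 12 tumors that had grown from subcutaneously injected MC38 cells. Of the tumors, 6 came from wild-type C57BL/6N mice (3 of day 23 and 3 of day 46) and 6 from mice labelled RAG1-/- (strain B6.129S7-Rag1tm1Mom/J, 3 of day 13 and 3 of day 23), which lack mature T and B cells but keep innate leukocytes. All mice were given as 8- to 12-week-old. The labels do not say whether the 2 MC38 samples were separate cultures, so p-values against them may not cover the spread between cultures. In the fit of tumors with MC38 cells, the spread was estimated from the tumors and the MC38 samples together. A tumor piece holds MC38 cells and host cells together, and in such bulk RNA fewer cells of a type and less RNA per cell cannot be told apart.

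Values are normalized counts, that is, reads on a gene divided by the library's size factor. Libraries held 5589151 to 26134241 reads on genes, and 3 reads, taken as the floor of detection for counting error only, stood at 1.33 to 6.38 normalized counts. Reads come from the 3′ end of each transcript, so counts were not divided by gene length. The 12 macrophage and monocyte markers summed to 172 and 198 normalized counts in MC38 cells, 13114 and 13552 in skin and 17416 to 35261 in the tumors, and Adgre1, Fcgr1, Mrc1 and Ms4a7 had no read in MC38 cells. T cell markers summed to 20.5 to 228 in wild-type tumors and 2.13 to 20.01 in tumors labelled RAG1-/-. Rag1 itself gave 0 to 1 read in the wild-type tumors and 1 to 12 in tumors labelled RAG1-/-, so it did not check the labels. Whether the 3′ end read here lies outside the deleted part is not given in the sources used here. Y-linked Ddx3y stood at 1803 and 1919 normalized counts in skin and at most 1.07 in the tumors. The skin libraries thus held Y-linked RNA that was all but missing from the tumors, and the part of the donors' sex in the comparisons with skin was not tested.

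By genomic position the genes form 2 clusters on chromosome 11 (GRCm38), with Ccl22 apart on chromosome 8 (94745590 to 94751699, plus strand). The first cluster runs from Ccl2 (82035571 to 82037453) through Ccl7 (82045712 to 82047525) and Ccl12 (82101845 to 82103400) to Ccl8 (82115185 to 82116799), all on the plus strand. After a gap of 1409 kb the second holds Ccl5 (83525778 to 83530518), Ccl9 (83572919 to 83578636), Ccl6 (83587882 to 83593087) and Ccl3 (83647844 to 83649355) on the minus strand and Ccl4 (83662584 to 83664683) on the plus strand. None of the 10 shares exonic bases with another annotated gene. Of the 22-base words in the last 300 bases of the transcripts, 4.06% for Ccl6, 4.84% for Ccl9 and 6.27% for Ccl5 also occur in other genes, so a small part of those reads could have been assigned to another gene. Ccl6 and Ccl9 share such words with each other.

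Genes with many reads in MC38 cells and genes with few or none sit beside each other in both clusters (the plot in chromosomal order). In the first, Ccl2 and Ccl7 had 3256 and 587 reads over both MC38 libraries, whereas their neighbours Ccl12 and Ccl8 had 0 and 14. In the second, Ccl5 had 1066, and Ccl9, Ccl6, Ccl3 and Ccl4 had 5, 2, 0 and 1.

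**Figure D1:**
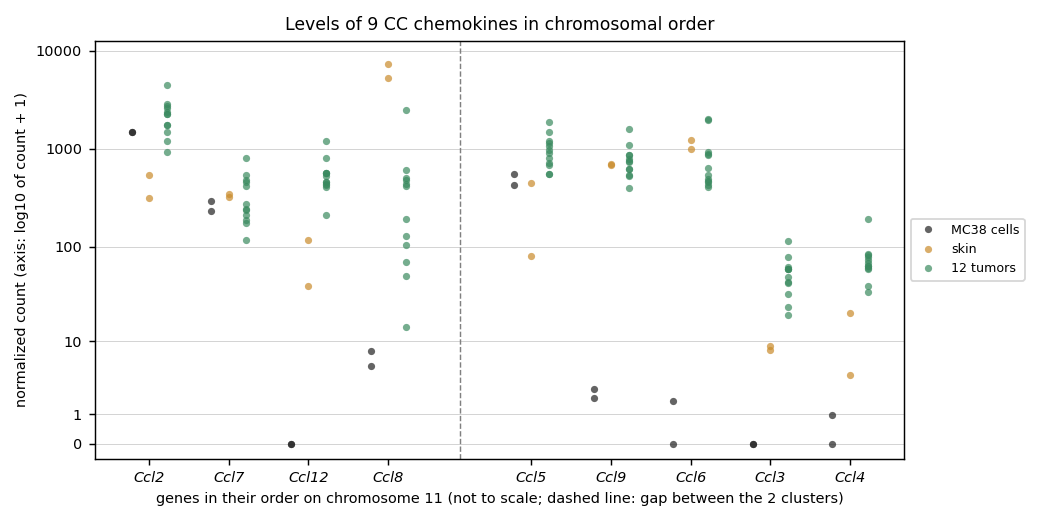
Normalized counts (log10 of count + 1) of the 9 genes on chromosome 11 in their order along it, 1 point per library, for 2 MC38, 2 skin and 12 tumor libraries; distances are not to scale and the dashed line marks the 1409 kb gap. Ccl2, Ccl7 and Ccl5 were read in MC38 cells, the other 6 stood below 10 normalized counts there and far higher in most tumors.

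Upstream sequences from RefSeq (GRCm38.p6) were held for 6 of the 10 genes (Ccl22, Ccl12, Ccl8, Ccl9, Ccl6 and Ccl3). The 250 bases before the start are shown for the adjacent genes Ccl12 (chr11:82101595-82101844, plus strand) and Ccl8 (chr11:82114935-82115184, plus strand), which were near 0 in MC38 cells and of which Ccl8 was the higher in skin but Ccl12 in most tumors, and for Ccl9 (chr11:83578637-83578886, minus strand), the member with the most motif matches. Capitals mark matches, on either strand, to a TATA box (TATAAA), AP-1 (TGANTCA) or NF-kB (GGG, any 3 bases, TTCC).
Ccl12: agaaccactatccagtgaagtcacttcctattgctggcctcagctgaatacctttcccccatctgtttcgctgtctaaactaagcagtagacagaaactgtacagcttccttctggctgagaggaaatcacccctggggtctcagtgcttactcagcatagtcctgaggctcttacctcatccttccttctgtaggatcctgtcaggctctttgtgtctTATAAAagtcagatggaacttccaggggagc
Ccl8: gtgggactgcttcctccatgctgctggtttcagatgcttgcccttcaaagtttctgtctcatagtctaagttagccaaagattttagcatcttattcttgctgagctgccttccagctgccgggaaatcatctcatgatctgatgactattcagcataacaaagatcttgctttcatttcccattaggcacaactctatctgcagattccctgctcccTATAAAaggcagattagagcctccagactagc
Ccl9: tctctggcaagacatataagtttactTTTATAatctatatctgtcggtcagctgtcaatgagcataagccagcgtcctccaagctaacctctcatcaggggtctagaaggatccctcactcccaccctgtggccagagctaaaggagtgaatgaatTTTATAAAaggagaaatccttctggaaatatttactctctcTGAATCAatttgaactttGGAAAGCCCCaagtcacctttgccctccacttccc

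A TATA box began 31 bases before the start of Ccl12 and 32 before that of Ccl8. Ccl9 had TATAAA matches at 224, 94 and 92 bases before the start, the last pair overlapping on opposite strands, an AP-1 match at 53 and an NF-kB match at 35. TATAAA thus occurred in 3 of 6 sequences against 12.4% of 32851 windows of the same length, AP-1 in 1 of 6 against 6.75%, and NF-kB in 1 of 6 against 4.65%. No match to PU.1 (GAGGAAGT, 2.44% of all windows) or to the STAT element TTCNNNGAA (7.02%) was found in the 6 sequences, which says only that these letters are not in these windows.

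MC38 cells expressed a narrow set of CC chemokines, and skin a different one. Ccl2, the main attractant of Ccr2-bearing monocytes, made up 67.2% and 64.7% of the summed normalized count of the 10 genes in the MC38 libraries, with Ccl5 at 19.0% and 24.5% and Ccl7 at 13.3% and 10.3%. In skin Ccl8, a relative of Ccl2, took 74.4% and 60.2% of the sum. In the tumors Ccl2 held 20.1% to 46.4% and led again, except in wild-type day 46 replicates 2 and 3, where Ccl8 and Ccl5 led.

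**Figure D2:**
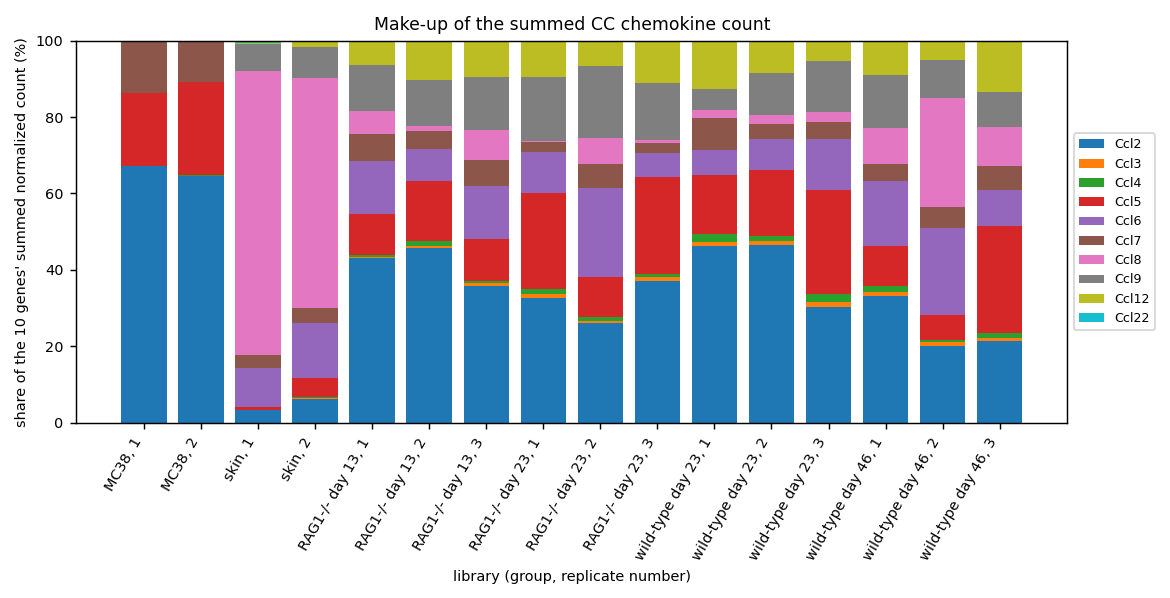
Share of each of the 10 genes in their summed normalized count (%), 1 bar per library with its group and replicate number; RAG1-/- is the genotype on the label. Ccl2, Ccl5 and Ccl7 fill the MC38 bars, Ccl8 holds 60.2% to 74.4% of the skin bars, and the tumor bars hold both the genes read in MC38 cells and those absent there.

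Ccl2 stood at 1498 and 1471 normalized counts in MC38 cells and at 312 and 541 in skin. Both MC38 libraries were above both skin libraries, and the log2 fold change was 1.85 (SE 0.28, adjusted p = 0.0041 from limma, as for every adjusted p here unless another tool is named). The median of all tested genes in this comparison was -0.40, so Ccl2 stood 2.25 above it. Ccl5, which attracts T cells and other leukocytes and binds Ccr1 among its receptors, stood at 424 and 558 in MC38 cells and at 80.4 and 444 in skin. That difference did not pass the test (log2 fold change 1.36, SE 0.81, adjusted p = 0.205), and the skin libraries were far apart. Without skin replicate 2 it passed (log2 fold change 2.58, adjusted p = 0.0498). Ccl7, another monocyte attractant that acts on Ccr2, stood at 297 and 235 in MC38 cells and at 324 and 343 in skin (log2 fold change -0.34, SE 0.20, adjusted p = 0.196), and its sign turned when libraries were rescaled to the same total (0.0761).

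The remaining genes were at or near 0 in MC38 cells. Ccl8 stood at 5.13 and 7.82 normalized counts there and at 7251 and 5201 in skin, the highest level of any of the 10 genes in any group (log2 fold change -9.71, SE 0.29, adjusted p = 0.00011). Ccl6 and Ccl9, which are ligands of Ccr1, had 2 and 5 reads over both MC38 libraries against 997 and 1239 normalized counts of Ccl6 and 685 and 695 of Ccl9 in skin. Their log2 fold changes were -9.40 (SE 0.56, adjusted p = 0.00027) and -7.73 (SE 0.31, adjusted p = 0.00015). Ccl12, a further Ccr2 ligand of the mouse, and Ccl22, a Ccr4 ligand made by dendritic cells and macrophages, had no read in MC38 cells. Skin held 38.8 and 116 of Ccl12 and 46.9 and 37.0 of Ccl22, at least 28.2-fold and 15.2-fold above a floor of 3 reads per MC38 library (adjusted p = 0.0013 and 0.00054). Ccl4, which attracts monocytes and lymphocytes, had 1 read in MC38 cells and 4.02 and 20.4 normalized counts in skin. It passed the test (log2 fold change -2.88, SE 0.86, adjusted p = 0.0358), but not without MC38 replicate 1 (adjusted p = 0.171), MC38 replicate 2 (0.0817) or skin replicate 1 (0.0783). The call was kept in 5 of 13 alternatives and lost with DESeq2 (adjusted p = 0.0681), among others. Ccl3, which acts on Ccr1, had no read in MC38 cells and 8.04 and 8.92 normalized counts in skin, and its mean was too low for the test.

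Of the 9 genes tested, 1 was higher and 6 were lower in MC38 cells, where 20.8% of all 16780 tested genes were higher and 41.2% lower (62% in either direction). Levels of MC38 cells and skin did not overlap for 82% of all tested genes. Their median log2 fold change was -5.41, or -3.93 with the genes at 0 set to their bounds, against -0.40 for all tested genes. Rescaling to the total raised the share of higher calls among all called genes from 33.5% to 46.3% but left the 7 calls at 7. Ccl4, Ccl6, Ccl9, Ccl12 and Ccl22 reached the filter through skin and could hardly have been higher in MC38 cells. The counts and medians thus cannot show the direction of the tested genes as a set.

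**Figure D3:**
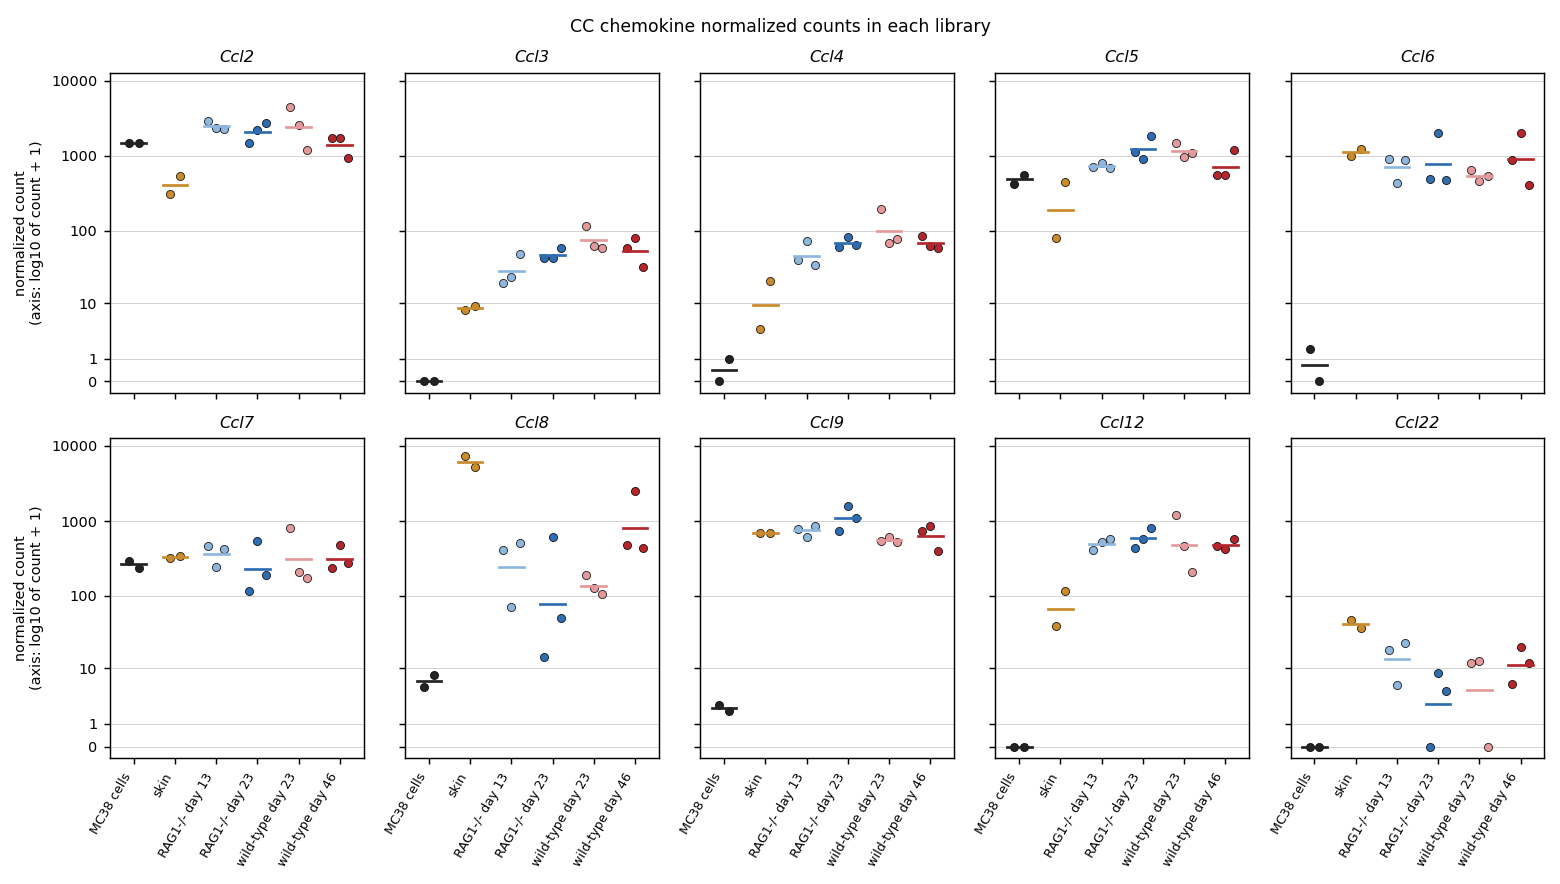
Normalized counts (log10 of count + 1) of the 10 genes in each of the 16 libraries by group, with 1 panel per gene; points are libraries, lines are means on the plotted scale, and RAG1-/- is the genotype on the label. Ccl2, Ccl5 and Ccl7 were present in MC38 cells, Ccl3, Ccl12 and Ccl22 had no read there, and Ccl8 was highest in skin.

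All 7 genes that were at or near 0 in MC38 cells were read in tumors of both genotypes, and most of them strongly. Against MC38 cells, 8 of the 10 genes were higher and none lower in tumors labelled RAG1-/- (15.8% of 14708 tested genes were higher and 7.55% lower, 23.3% in all), and likewise 8 and 0 in wild-type tumors (18.3% and 9.61%, 27.9% in all). The tumors did not overlap the MC38 libraries for 7 of the 10 genes in those labelled RAG1-/- and for 6 in wild-type tumors, against 36.6% and 37.4% of tested genes. The 2 comparisons share the MC38 libraries. The median log2 fold change of the 10 genes was 4.74 and 5.70, or 4.04 and 5.06 with genes at 0 set to their bounds, against 0.06 and 0.05 for all tested genes. Ccl3, Ccl4, Ccl6, Ccl9, Ccl12 and Ccl22 had at most 5 reads in MC38 cells and reached the filter through the tumors. They could hardly have been lower in tumors, so these counts and medians cannot show the direction of the 10 genes as a set.

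Ccl12, absent from the cultured cells with no read in either MC38 library, stood at 412, 526 and 572 normalized counts at day 13 and 435, 570 and 808 at day 23 in tumors labelled RAG1-/-, and at 1195, 459 and 209 at day 23 and 461, 426 and 570 at day 46 in wild-type tumors. Each tumor was thus above the MC38 and the skin libraries. The mean in tumors of either genotype was at least 201-fold above the floor (adjusted p = 8.7e-12 in tumors labelled RAG1-/- and 1.1e-11 in wild-type tumors).

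Ccl9 stood at 791, 620 and 866 normalized counts at day 13 and 748, 1598 and 1098 at day 23 in tumors labelled RAG1-/-, and at 542, 616 and 528 at day 23 and 736, 870 and 401 at day 46 in wild-type tumors. The lowest tumor was far above the 2.57 and 1.96 of the MC38 libraries. With 5 MC38 reads, the ratio to MC38 cells was 418 (95% Poisson interval 179 to 1287) in tumors labelled RAG1-/- and 270 (116 to 831) in wild-type tumors, where the interval covers the counting error of the MC38 reads only. Log2 fold changes were 8.13 (SE 0.28, adjusted p = 1.5e-13) and 7.53 (SE 0.28, adjusted p = 3.9e-13).

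Ccl6 ranged from 430 to 1992 in tumors labelled RAG1-/- (median 680) and from 405 to 1987 in wild-type tumors (median 589), against 1.71 and 0 in MC38 cells. Its log2 fold changes were 8.81 and 8.72 (SE 0.55 for both, adjusted p = 7.4e-10 and 7.6e-10). Ccl6 and Ccl9 in tumors of either genotype overlapped their levels in skin.

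Ccl8 varied most. In tumors labelled RAG1-/- it stood at 415, 70.0 and 505 normalized counts at day 13 and 14.4, 604 and 50.4 at day 23, and in wild-type tumors at 193, 129 and 105 at day 23 and 486, 2482 and 438 at day 46. The highest tumor was 172-fold above the lowest, yet every tumor was above both MC38 libraries. The log2 fold change over MC38 cells was 4.24 (SE 0.98, adjusted p = 0.0039) in tumors labelled RAG1-/- and 5.51 (SE 0.98, adjusted p = 0.00034) in wild-type tumors. The first did not pass without MC38 replicate 1 (adjusted p = 0.0643).

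Ccl3 and Ccl4, neighbours on the chromosome, were lower than these but present in all 12 tumors. Ccl3 ranged from 19.3 to 58.8 normalized counts in tumors labelled RAG1-/- (median 42.9) and from 32.0 to 114 in wild-type tumors (median 60.4), at least 14.3-fold and 24.6-fold above the floor (adjusted p = 5.6e-08 and 7.6e-09). Ccl4 ranged from 34.3 to 83.0 (median 62.1) and from 58.4 to 194 (median 72.5), against a single MC38 read (adjusted p = 2.7e-08 and 6.3e-09). The ratio of Ccl4 to MC38 cells was 129 (23.2 to 5099) and 199 (35.7 to 7856), so that its size is poorly fixed.

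Ccl22 stayed low. It stood between 0 and 22.9 normalized counts in tumors labelled RAG1-/- (median 7.04) and between 0 and 20.1 in wild-type tumors (median 11.9), with 0 reads in RAG1-/- day 23 replicate 1 and wild-type day 23 replicate 3. Tumors therefore overlapped the MC38 libraries. The means were at least 3.61-fold and 3.79-fold above the floor, and both passed the test (adjusted p = 0.0490 and 0.0317), but the call was kept in only 8 and 10 of 18 alternatives. It was lost, among others, without MC38 replicate 1 (adjusted p = 0.209 and 0.160) and without MC38 replicate 2 (0.230 and 0.169). Leaving out RAG1-/- day 13 replicate 1 (adjusted p = 0.0833) or 3 (0.0908), RAG1-/- day 23 replicate 2 (0.0896) or 3 (0.0800), wild-type day 23 replicate 1 (0.0621) or 2 (0.0623), or wild-type day 46 replicate 2 (0.0610) also ended the call in that genotype.

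The genes that MC38 cells did express changed far less as a ratio to MC38 cells, where they started from a higher level. Mean normalized counts of Ccl2 and Ccl5 were 1485 and 491 in MC38 cells and 2213 and 997 over all tumors. Ccl2 stood at 2871, 2369 and 2248 normalized counts at day 13 and 1475, 2238 and 2728 at day 23 in tumors labelled RAG1-/-, and at 4428, 2586 and 1199 at day 23 and 1740, 1752 and 926 at day 46 in wild-type tumors. These values lay on both sides of the MC38 libraries. The log2 fold change was 0.61 (SE 0.35, adjusted p = 0.230) in tumors labelled RAG1-/- and 0.31 (SE 0.35, adjusted p = 0.564) in wild-type tumors.

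Ccl5 stood at 721, 813 and 684 at day 13 and 1139, 911 and 1859 at day 23 in tumors labelled RAG1-/-, and at 1474, 971 and 1081 at day 23 and 549, 549 and 1213 at day 46 in wild-type tumors. All 6 tumors labelled RAG1-/- were above both MC38 libraries, and 2 wild-type tumors of day 46 were between them. Log2 fold changes were 0.98 (SE 0.29, adjusted p = 0.0185) and 0.90 (SE 0.29, adjusted p = 0.0249). Neither passed without MC38 replicate 1 (adjusted p = 0.224 and 0.256) or MC38 replicate 2 (0.0594 and 0.0698), and with the replicate number as a block the wild-type value was 0.76 (adjusted p = 0.0509). Both calls were also lost without the trend (adjusted p = 0.0636 and 0.0744) and with all 16 libraries in one fit (0.157 and 0.177), and they were kept in 15 and 13 of 19 alternatives.

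Ccl7 ranged from 117 to 540 normalized counts in tumors labelled RAG1-/- (median 330) and from 176 to 798 in wild-type tumors (median 257), which overlapped the MC38 libraries (log2 fold change 0.12 and 0.24, SE 0.52 for both, adjusted p = 0.905 and 0.785). Its sign turned without MC38 replicate 2 or RAG1-/- day 23 replicate 2 in the first and without wild-type day 23 replicate 1 in the second.

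**Figure D4:**
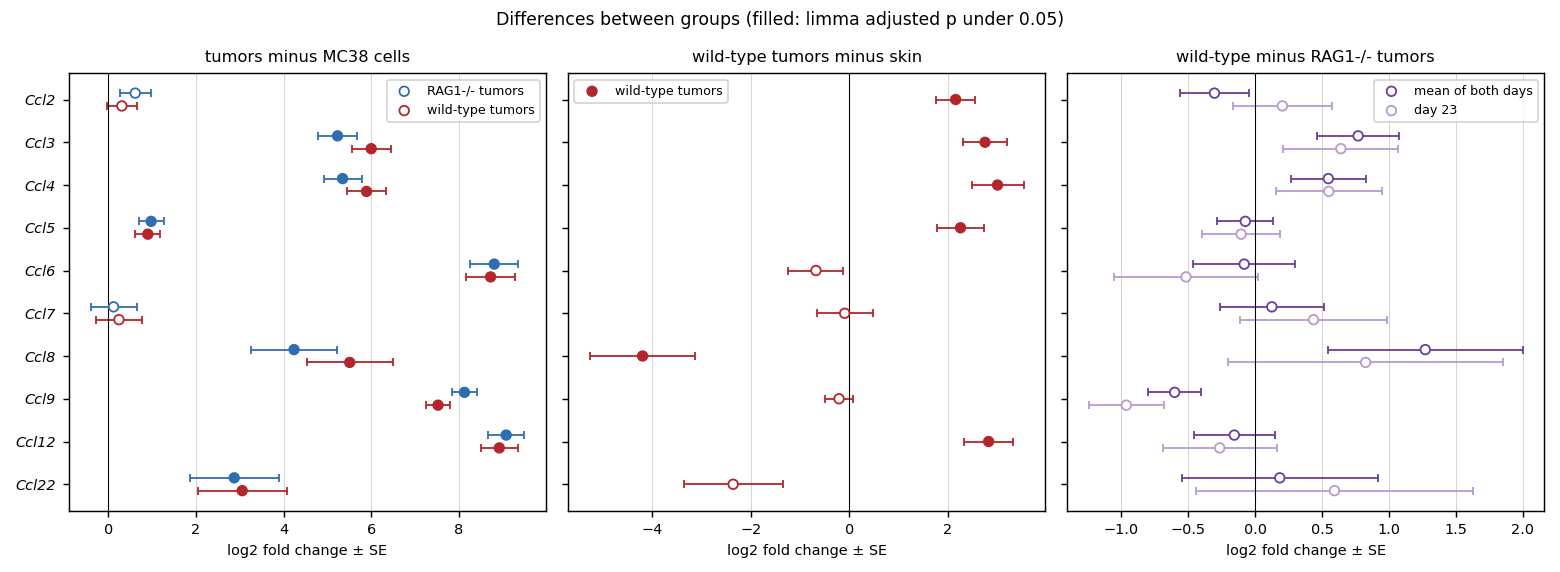
Log2 fold changes ± SE of the 10 genes from limma, on log2(normalized count + 1), for tumors against MC38 cells (left), wild-type tumors against skin (middle) and wild-type tumors against tumors labelled RAG1-/- (right); filled points passed an adjusted p of 0.05 and open points did not. In the left panel 8 genes pass in each genotype, in the middle 6, and in the right panel none.

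Compared with skin, wild-type tumors had more of 5 of the chemokines and less Ccl8. Ccl2, Ccl3, Ccl4, Ccl5 and Ccl12 were higher and Ccl8 was lower, 5 and 1 of 10 genes, where 22.8% of 16259 tested genes were higher and 34.2% lower (57% in either direction). The groups did not overlap for 7 of the 10 genes, against 58% of tested genes. The log2 fold changes of the 5 were 2.16 (SE 0.40) for Ccl2, 2.76 (SE 0.45) for Ccl3, 3.01 (SE 0.53) for Ccl4, 2.26 (SE 0.48) for Ccl5 and 2.83 (SE 0.50) for Ccl12, with adjusted p from 0.00012 to 0.0011. For each of these all 6 wild-type tumors were above both skin libraries. Without skin replicate 1, in which Ccl5 was low, Ccl5 no longer passed (log2 fold change 1.03, adjusted p = 0.0763).

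Every wild-type tumor was below both skin libraries for Ccl8 (log2 fold change -4.20, SE 1.07, adjusted p = 0.0039, but 0.0689 without skin replicate 1, and DESeq2 gave no adjusted p). Ccl22 was also below skin in all 6 tumors but missed the threshold (log2 fold change -2.36, SE 1.00, adjusted p = 0.0584), and passed it without wild-type day 23 replicate 1 (0.0408) or 2 (0.0404). Ccl6, Ccl7 and Ccl9 overlapped skin, with log2 fold changes of -0.68 (SE 0.56), -0.09 (SE 0.57) and -0.21 (SE 0.28) and adjusted p of 0.318, 0.900 and 0.550. Other cell types moved with this comparison. The 8 fibroblast markers summed to 359918 and 418241 normalized counts in skin and 19103 to 49272 in wild-type tumors, and the 6 keratinocyte markers to 332108 and 335920 against 230 to 1878. Skeletal muscle markers summed to 87116 and 124328 in skin and 20.5 to 1037 in wild-type tumors, and mast cell markers to 1667 and 2864 against 30.1 to 365, whereas macrophage and monocyte markers were higher in wild-type tumors (23918 to 35261) than in skin. Of the fibroblast markers 6 were lower and 1 higher in wild-type tumors, of the keratinocyte markers all 6 lower. The part of these cell types in the differences was not tested. The median of all tested genes was -0.18 and became 0.21 after rescaling to the total, which turned the share of higher calls from 40.0% to 56.9% and the signs of Ccl7 and Ccl9 but left the 6 calls at 6.

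None of the 10 genes passed the test between the host genotypes over both days (wild-type against labelled RAG1-/-). By limma 0 passed, as by edgeR and DESeq2, against 0.712% of 14746 tested genes (0.57% higher and 0.142% lower in wild-type tumors), and 2 (Ccl9 and Ccl3) had an unadjusted p under 0.05. The levels overlapped between the genotypes for all 10, whereas 0.983% of tested genes did not overlap. Log2 fold changes were positive for 5 genes and negative for 5.

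The furthest were Ccl9, lower in wild-type tumors (log2 fold change -0.60, SE 0.20, adjusted p = 0.237, exact permutation p = 0.0303, two-sided), and Ccl3, higher (0.77, SE 0.30, adjusted p = 0.335, exact permutation p = 0.0628). Ccl8 had the greatest difference, with a wide error (1.27, SE 0.73, adjusted p = 0.547). For Ccl4 the difference was 0.55 (SE 0.28, adjusted p = 0.487) and for Ccl2 -0.30 (SE 0.26, adjusted p = 0.711). The other 5 lay between -0.16 and 0.18, and their signs turned when single tumors were left out. T cell markers did separate the genotypes, with 4 of 5 tested markers higher in wild-type tumors over both days and 1 of 5 at day 23. With sums of 2.13 to 20.01 in tumors labelled RAG1-/-, they could hardly have been lower in wild-type tumors. Of 12 macrophage and monocyte markers and 3 tested NK cell markers, 0 passed over both days. Of the latter, Nkg7 was higher in wild-type tumors (log2 fold change 2.13, adjusted p = 0.0870), and Eomes was also read in MC38 cells.

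At day 23 alone, Ccl9 stood at 542, 616 and 528 normalized counts in wild-type tumors and at 748, 1598 and 1098 in tumors labelled RAG1-/-. The groups did not overlap, nor did they for 16.1% of tested genes, and the log2 fold change was -0.96 (SE 0.28, adjusted p = 0.184). By limma and edgeR 0 of 10 genes passed here, against 0.278% of tested genes by limma (0.231% higher and 0.0475% lower), and Ccl9 was the only gene of the 10 with an unadjusted p under 0.05. With DESeq2 it passed (-1.03, adjusted p = 0.0271).

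Over time none of the 10 genes passed in either genotype with limma, edgeR or DESeq2, and neither did any of the 14746 tested genes with limma (0% called, with 1261 genes at an unadjusted p under 0.05 in wild-type tumors and 1722 in tumors labelled RAG1-/-). Ccl8 was higher in all 3 wild-type tumors of day 46 than in all 3 of day 23 (log2 fold change 2.55, SE 1.03, unadjusted p = 0.0256, adjusted p = 0.530), and Ccl5 was lower on the log scale (-0.69, SE 0.29, unadjusted p = 0.0323, adjusted p = 0.548) with overlapping values. In tumors labelled RAG1-/- Ccl5 was higher in all 3 of day 23 than in all 3 of day 13 (0.75, SE 0.29, unadjusted p = 0.0212, adjusted p = 0.335). Summed neutrophil markers were also higher at day 23 (900.1 to 1821 normalized counts, against 405 to 572 at day 13). Of the 6 tested neutrophil markers, however, only Mmp9 had a positive log2 fold change (1.61), and their median was -0.26. Summed skeletal muscle markers were lower at day 23 (27.0 to 56.3 against 287 to 7544). In wild-type tumors summed endothelial markers were 454 to 539 at day 23 and 696 to 1246 at day 46. No marker of these lists passed the test over time, and their part in the changes was not tested. Such lack of overlap was found for 12.5% of tested genes in wild-type tumors and 19.4% in tumors labelled RAG1-/-. With 3 against 3 the exact permutation test cannot go below 0.1.

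Much of the variation was between single tumors. Wild-type day 23 replicate 1 had the highest level among the 12 tumors for 5 of the 10 genes (Ccl2, Ccl3, Ccl4, Ccl7 and Ccl12). This tumor also had the highest summed macrophage and monocyte markers (35261), T cell markers (227.9) and leukocyte markers (13775.6). RAG1-/- day 23 replicate 2, the shallowest library, was highest for Ccl6 and Ccl9. Wild-type day 46 replicate 2 held the Ccl8 value of 2482, with the next tumor at 604. It was also highest among tumors for the fibroblast genes Col1a2 (13504, next 4835) and Lum (351, with RAG1-/- day 13 replicate 1 next). The same held for the summed fibroblast markers (49272) and endothelial markers (1245.5). For summed macrophage and monocyte markers (32026.6) and leukocyte markers (11883.7) it came next after wild-type day 23 replicate 1. The part of these cell types in the levels was not tested.

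Ccr1 and Ccr2, receptors for several of these ligands, were read in all tumors and had no read in either MC38 library. In tumors Ccr1 ranged from 375 to 865 normalized counts (median 580) and Ccr2 from 63.4 to 853 (median 317). The 13 receptors and scavenging receptors summed to only 2.57 to 5.87 normalized counts in MC38 cells. The 5 of them tested against MC38 cells reached the filter through the tumors and could hardly have been lower there. Of these 5, 3 were higher in tumors labelled RAG1-/- and 4 in wild-type tumors, against 15.8% and 18.3% of all tested genes. Between the genotypes 0 of 5 passed with limma (Ccr1 log2 fold change -0.30, SE 0.14, adjusted p = 0.447). Against skin, Ccr1 was higher in wild-type tumors (log2 fold change 3.08, SE 0.20, adjusted p = 2.1e-08). Ccr2 was lower (-1.61, SE 0.63, adjusted p = 0.0410), and so were the scavenging receptors Ackr1 and Ackr4. The skin libraries were far apart for Ccr2 (355 and 1443 normalized counts), and its highest wild-type tumor stood at 354.

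**Figure D5:**
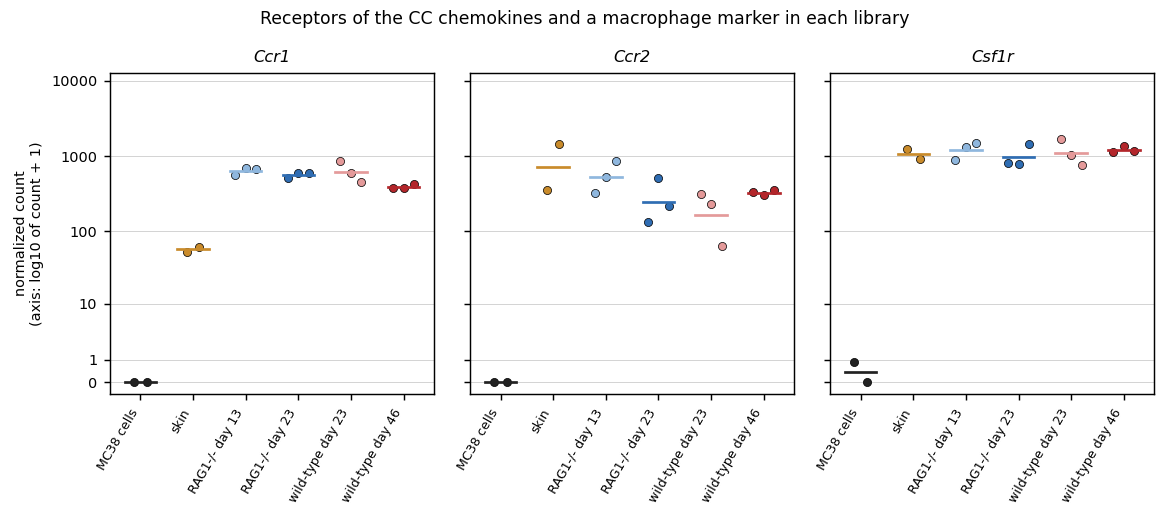
Normalized counts (log10 of count + 1) of Ccr1 and Ccr2 and of the macrophage marker Csf1r in each of the 16 libraries; points are libraries, lines are means on the plotted scale, and RAG1-/- is the genotype on the label. Ccr1 and Ccr2 had no read and Csf1r at most 1 in MC38 cells, and in tumors they ranged from 375 to 865, 63.4 to 853 and 765 to 1668.

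Other genes with nearly the same pattern over the 16 libraries differed between the chemokines. Likeness was the mean absolute difference between log2(normalized count + 1) values after centring each gene on its own mean, and the nearest genes are a description with no test. Nearest to Ccl2 was Csf1, a growth factor of macrophages (0.316), which stood at 1092 and 1223 normalized counts in MC38 cells. Mad2l1 was almost as near to Ccl2 (0.326). Nearest to Ccl5 was Gsdmd (0.330), which encodes a pore-forming protein. Nearest to Ccl12 was the receptor Ccr1 (0.376) and nearest to Ccl9 was the platelet chemokine Pf4 (0.347). For Ccl8 it was the complement gene C4b (0.516) and for Ccl6 Wfdc17 (0.429). For Ccl7 it was Tubd1 (0.368), for Ccl22 Tspan12 (0.488), and outside the 10 genes Sirpb1b for Ccl3 (0.495) and Sh2d1b1 for Ccl4 (0.54). Among the 10 themselves, Ccl3 and Ccl4 were nearest to each other (0.522), as were Ccl6 and Ccl9 (0.542) and Ccl2 and Ccl5 (0.621).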

How the data were processed

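RNA was read from transcript 3′ ends (QuantSeq kit, Ion Proton). The authors trimmed reads with Cutadapt and Trimmomatic, dropped those under 22 nucleotides, aligned to mm10 with STAR and Bowtie2 (primary alignments only) and counted per gene with HTSeq-count. The deposited signal is this count divided by DESeq2 size factors. Strand setting, annotation and versions are not given in the sources used here. All values were whole multiples of 1 read (tolerance 0.001), so reads were recovered for 100% of values.

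Genes averaging at least 5 normalized counts over the libraries of a fit were tested on log2(normalized count + 1), which understates folds of low genes, with limma 3.58.1 (R 4.3.3, mean-dependent trend, two-sided, Benjamini-Hochberg over all genes, threshold 0.05) in 4 fits: MC38 and skin, 12 tumors, and tumors with MC38 or with skin. Alternatives included edgeR 4.0.16 and DESeq2 1.42.0 on the reads. The limma test was also run on simulated data with smaller changes than many seen here, which does not check it at those sizes. Intervals are exact Poisson at 95%. Another table, with 6 columns that match no label, was not used here. Of the 22 samples 16 were used. No 2 replicates were copies of a library (chi-square per degree of freedom 8.42 to 87.2). Members and gene lists were chosen with earlier results of these data known. By rule all 10 members, the most abundant other CC chemokines and receptors, marker genes, Rag1 and each member's nearest genes could be named. Ddx3y was named after its values were seen. A receptor on the list is not reported here and was left out of its counts. Positions follow GENCODE on GRCm38, and promoters follow RefSeq.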

Additional observations from a re-analysis of the deposited data

Results flagged for a closer look

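In 3 of 20 sets of 6 tumors (10 genes in each genotype), the highest or lowest value on the log2(normalized count + 1) scale lay further from the rest than Dixon's 95% limit of 0.625 of the range allows, and chance flags about 1 in 20 such sets. Ccl4 in wild-type day 23 replicate 1 stood at 194 normalized counts, with the next wild-type tumor at 84.1 (gap 0.698 of the range). Ccl2 in RAG1-/- day 23 replicate 1 stood at 1475, below the other 5 tumors with that label (0.626), and Ccl22 in wild-type day 23 replicate 3 at 0, below the other wild-type tumors (0.631).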

How the results depend on the processing

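The number of the 10 genes called stayed within 1.5 times its value under every alternative except 2. Without MC38 replicate 1, 5 genes in place of 8 were higher in tumors labelled RAG1-/- than in MC38 cells, while calls among all genes fell from 23.3% to 13.3%, and with DESeq2 1 gene (Ccl9) in place of 0 differed between genotypes at day 23. Leaving out single replicates gave 6 to 7 genes for MC38 cells against skin, 5 to 8 and 6 to 8 for tumors labelled RAG1-/- and wild-type tumors against MC38 cells, 4 to 7 for wild-type tumors against skin and 0 to 0 for the comparisons among tumors. Calls among all genes ranged in the same fits from 6253 to 7400 (10402 with all libraries), 1832 to 3569 (3428), 2172 to 4396 (4100) and 7108 to 9355 (9262). With 1 library left in an arm, its spread was taken from the other groups.

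Signs turned only for values that did not pass. Ccl7 against skin turned to 0.0761 for MC38 cells when rescaled to the total, and for wild-type tumors to 0.21 with the upper quartile, 0.30 with the total, 0.0424 with the replicate block, 0.28 with edgeR and 0.15 with DESeq2. Ccl9 in wild-type tumors against skin turned to 0.0926 and 0.19 with the upper quartile and the total. Leaving out a replicate, Ccl7 ranged from -0.19 to 0.36 and -0.10 to 0.45 in the tumors labelled RAG1-/- and the wild-type tumors against MC38 cells and from -0.43 to 0.11 in wild-type tumors against skin. Between genotypes the ranges were -0.265 to 0.0698 for Ccl5, -0.37 to 0.26 for Ccl6, -0.22 to 0.43 for Ccl7, -0.48 to 0.15 for Ccl12 and -0.29 to 0.80 for Ccl22. The causes were not tested.

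Same-numbered tumors did not deviate together (correlations -0.236 to 0.246 over 18 pairs), so the numbers were not taken as pairs. With the replicate block 8 genes were called for MC38 cells against skin, 7 for each genotype against MC38 cells, 6 for wild-type tumors against skin and 0 among tumors, where 63.6%, 22.5%, 25.8% and 56.1% of all genes were called in the first 4 comparisons.

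On the recovered reads edgeR called 10160 genes for MC38 cells against skin, where limma called 10402. Over all genes, wild-type tumors against tumors labelled RAG1-/- gave 105 calls with limma, 283 with DESeq2 and 48 without the trend. At day 23 there were 41 calls with limma, 239 with DESeq2, 22 with edgeR, 22 without the filter and 15 without the trend. For time, limma gave 0 and DESeq2 41 in wild-type tumors and 206 in tumors labelled RAG1-/-. Leaving out single libraries, limma gave 65 to 171 calls over both days, 5 to 60 at day 23, and 0 to 7 and 0 to 37 for time. Levels under 1.33 to 6.38 normalized counts are not resolved at these depths.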

Other observations

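Of 11 other CC chemokines, most had their highest mean in skin. Against skin, 6 of 8 tested were lower and 1 was higher in wild-type tumors, where 34.2% and 22.8% of all tested genes were. Some of the 8, such as Ccl27a (mean 4.13 over all tumors), reached the filter only through skin. These could hardly have been higher in tumors, so the counts cannot show the direction of the list. Ccl27a, a keratinocyte product that attracts T cells, stood at 2952 and 3034 normalized counts in skin and at most 11.4 in any tumor, and Ccl21a, which guides cells towards lymphatics, at 399 and 408 against at most 34.9. Ccl11, an attractant of eosinophils that lies between Ccl7 and Ccl12 in the first cluster, stood at 421 and 218 in skin, 0 and 0.978 in MC38 cells and 2.56 to 146 in tumors. It was highest among tumors in wild-type day 46 replicate 2, as was Ccl8. Ccl25, known from thymus and small intestine, ran the other way and stood at 195 and 178 in MC38 cells, 42.9 and 44.6 in skin and 94.1 to 246 in tumors. It was higher in wild-type tumors than in skin (log2 fold change 1.68, SE 0.32, adjusted p = 0.00041 from limma), and its difference from MC38 cells did not pass in either genotype (-0.11 and -0.39, SE 0.29 for both, adjusted p = 0.833 and 0.361). Ccl28, named after its values were seen, was also less in skin (1 read over both libraries, 13 in MC38 cells), at levels too low to test, and Ccl26 had no read in any library.

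After the data had been seen, the change over time was compared between genotypes, although the labelled days differ (day 46 minus day 23 in wild-type tumors, day 23 minus day 13 in tumors labelled RAG1-/-). The difference for Ccl5 was -1.45 on the log2 scale (SE 0.42, unadjusted p = 0.0033, adjusted p = 0.398 from limma) and for Ccl8 4.20 (SE 1.46, unadjusted p = 0.011, adjusted p = 0.477). Neither passed the adjustment over all genes, nor in any of 10 alternatives (lowest adjusted p 0.0992 and 0.402).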
